A study of Mus musculus with 4 samples.

Results

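The histone genes of the large cluster on mouse chromosome 13 were examined in open-chromatin peak lists of developing T cells. The members were the protein-coding genes with a histone name that lie inside 2 intervals of the mm10 genome, chr13:21715000-22045000 (330 kb) and chr13:23531000-23765000 (234 kb), which are 1486 kb apart. They numbered 52 of the 21887 protein-coding genes in the gene table, 23 in the first interval and 29 in the second, with 6 genes for H1, 12 for H2A, 14 for H2B, 9 for H3 and 11 for H4. Another 2 histone genes in the intervals, H2ac14 and H2ac5-ps, are annotated as pseudogenes and were not counted.

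Open chromatin was mapped with ATAC-seq, an assay whose transposase cuts accessible DNA and tags the cut ends for sequencing, in 4 thymocyte samples. The cells were sorted straight from the thymus of C57BL/6J mice, wild type by the titles, at an age of 5 to 7 weeks. There were 2 samples of double-negative (DN) cells, which lack CD4 and CD8 and were sorted as CD25+CD44-/+, and 2 of double-positive (DP) cells, the later CD4+CD8+ stage. No deletion or treatment is named for any sample. Separate mice are not stated for the 2 samples of a stage, and p-values therefore measure only the spread between these samples, which could be technical.

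Replication-dependent histone genes supply the core histones H2A, H2B, H3 and H4 and the linker histone H1 that package newly copied DNA. They are short, mostly without introns, and are transcribed in S phase, when the factor NPAT gathers at their promoters. Their messages end in a stem-loop instead of a poly(A) tail. In the thymus, DN cells that have passed beta selection divide rapidly before they become DP cells, most of which rest. The DN samples here were sorted by CD25 and CD44, not by passage of beta selection or by division.

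Most H2A and H2B genes of the cluster lie head to head, with 1 stretch of DNA as promoter for both. The stretches below show the contrasts the results turn on. They are the 150 bases just before a start site, 5′ to 3′ on the gene's strand, from RefSeq's promoter table of GRCm38.p6 (the build of mm10). H2ac8 (chr13:23571221-23571370, minus strand) stands for the shared H2A-H2B promoters that all 4 lists cover, H3c11 (chr13:21783398-21783547, minus strand), H4c3 (chr13:23698459-23698608, minus strand) and H1f3 (chr13:23554882-23555031, plus strand) for the other families. H2ac23 (chr13:21810217-21810366, plus strand), H4c17 (chr13:21811596-21811745, plus strand) and H4c18 (chr13:21832198-21832347, minus strand) belong to a repeated stretch with few or no peaks, and H1f6 (chr13:23695661-23695810, plus strand) encodes the testis H1. Capitals mark matches on either strand to TATAAA, to CCAAT, to ATTTGCA (part of the octamer bound by POU factors), to AAACACA (the H1 box) or to GGTCCG (the core of the H4 promoter element). In H3c11 a GGTCCG match on the opposite strand overlaps a CCAAT.
H2ac8: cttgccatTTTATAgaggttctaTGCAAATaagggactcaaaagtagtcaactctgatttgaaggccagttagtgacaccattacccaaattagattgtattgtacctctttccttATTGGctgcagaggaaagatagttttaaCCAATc
H3c11: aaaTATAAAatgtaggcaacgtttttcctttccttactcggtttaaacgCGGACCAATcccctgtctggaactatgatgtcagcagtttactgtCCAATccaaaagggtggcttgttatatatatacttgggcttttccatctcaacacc
H4c3: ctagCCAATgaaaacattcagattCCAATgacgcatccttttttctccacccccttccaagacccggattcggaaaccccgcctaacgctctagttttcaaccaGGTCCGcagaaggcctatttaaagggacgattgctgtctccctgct
H1f3: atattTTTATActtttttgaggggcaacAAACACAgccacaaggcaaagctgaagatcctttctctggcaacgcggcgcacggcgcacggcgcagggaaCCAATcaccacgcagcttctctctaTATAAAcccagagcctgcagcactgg
H2ac23: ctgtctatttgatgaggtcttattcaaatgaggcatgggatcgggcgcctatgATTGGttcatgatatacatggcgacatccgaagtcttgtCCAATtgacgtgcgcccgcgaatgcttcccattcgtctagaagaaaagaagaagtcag
H4c17: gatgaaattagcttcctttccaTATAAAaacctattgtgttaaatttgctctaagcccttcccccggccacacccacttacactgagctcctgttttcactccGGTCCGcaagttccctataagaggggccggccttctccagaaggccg
H4c18: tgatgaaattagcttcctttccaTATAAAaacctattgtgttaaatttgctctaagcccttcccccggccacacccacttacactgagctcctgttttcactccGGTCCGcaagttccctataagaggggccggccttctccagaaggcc
H1f6: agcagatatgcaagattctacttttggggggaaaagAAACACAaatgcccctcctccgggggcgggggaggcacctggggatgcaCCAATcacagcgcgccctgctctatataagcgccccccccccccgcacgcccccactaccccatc

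The promoter table held 49 of the 52 members with 50 start sites, and H3c7, H2bc4 and H3c1 had no entry. In the 250 bases before the start, CCAAT occurred in 42 of the 50 histone promoters (84.0%) and in 33.8% of all 32851 promoters of the table. It was in every H1, H2A, H2B and H3 promoter of the 50 but in only 3 of 11 H4 promoters. TATAAA occurred in 24 of the 50 (48.0%, against 12.4% of all promoters). The other motifs were mostly those of a family. AAACACA was in 5 of 6 H1 promoters (6.25% of all promoters) and GGTCCG in 8 of 11 H4 promoters (6.72% of all). ATTTGCA was in 5 of 14 H2B and 4 of 12 H2A promoters, against 3.56% of all. An H2A and an H2B gene that share a stretch are both counted. A match describes the letters and does not show that a factor binds.

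The lists held 38808 peaks for DN 1, 33131 for DN 2, 39718 for DP 1 and 70385 for DP 2, and a missing peak cannot be told apart from too few reads, because no counts come with the lists and their depth is unknown. DN 2 held the fewest genes of any kind. Of all protein-coding genes, 49.5% in DN 1, 36.8% in DN 2, 58.7% in DP 1 and 63.7% in DP 2 had a peak within 1 kb. DN 2 had such a peak at 0 of 4 genes fixed for the CD25-positive DN stage (Il2ra, Ptcra, Notch1 and Hes1). DN 1 had 4 of these, DP 1 had 3 and DP 2 had 4. Of 4 DP genes (Cd4, Cd8a, Cd8b1, Rag1) the lists held 2, 1, 4 and 4 in the order DN 1, DN 2, DP 1, DP 2, and of 4 T cell identity genes 3, 2, 4 and 4. Of 4 genes for each of the other cell types reported, they held 0, 0, 2 and 2 for myeloid, 0, 1, 1 and 1 for erythroid and 2, 1, 3 and 2 for stromal cells. Of the B cell genes, Pax5 and Ebf1 were held by all 4 lists and Cd79a by DP 2 alone. Among all protein-coding genes, 31.0% were held by all 4 lists. Pax5 and Ebf1 have far longer spans than Cd79a, and a peak anywhere in the span counts. Lyz2, Csf1r, Gata1, Hba-a1, Hbb-bs and Epcam were held by no list. The part of other cells or of depth in the results was not tested.

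Peaks were dense over the histone genes in both stages. DN 1 had 55 peaks with their midpoint in the intervals, DN 2 had 34, DP 1 had 74 and DP 2 had 63. Both DP lists were above both DN lists, with means of 68.5 ± 7.78 in DP and 44.5 ± 14.8 in DN (SD, n = 2). The difference of 24 peaks had a two-sided exact permutation p of 0.333, the smallest that 2 samples against 2 allow (adjusted p = 0.333 over 5 such tests on this cluster), and it was 13.5 without DN 2. Per 10000 peaks of a list the counts were 14.2, 10.3, 18.6 and 8.95, and the groups overlapped. The density was 97.5, 60.3, 131 and 112 peaks per Mb in DN 1, DN 2, DP 1 and DP 2, against 15.5, 13.2, 15.8 and 27.1 on the rest of chromosome 13. Of these peaks 80.0, 91.2, 73.0 and 74.6% lay within 1 kb of a histone gene.

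Of the 52 histone genes, 39 (75.0%) had a peak within 1 kb of the gene span in all 4 lists. Among all protein-coding genes this share was 31.0%. When a peak had to touch the gene, 34 members were held by all 4 lists, and the share of all genes was not taken. DN 1 held 45 of the 52 genes, DN 2 held 39, DP 1 held 47 and DP 2 held 49. The DP lists were again above the DN lists (48 ± 1.41 against 42 ± 4.24, SD, n = 2, two-sided exact permutation p = 0.333), a difference of 6 genes that was 3 without DN 2 and 9 without DN 1. Without DN 2, 45 genes were held by all 3 remaining lists. Over all protein-coding genes, such a set joins the 31.0% in all 4 lists to the 12.9% missing only from DN 2. Per 10000 peaks the direction turned, with a DP minus DN difference of -2.29 genes (11.6 and 11.8 in DN, 11.8 and 6.96 in DP). Among all protein-coding genes the lists held 49.5, 36.8, 58.7 and 63.7%, against 86.5, 75.0, 90.4 and 94.2% of the histone genes. Histone genes are short, and few short genes had a peak in every list: 3.68% of all protein-coding genes with a span of at most 1 kb did, members included. Of the other 1530 such genes, 22 (1.44%) were held by all 4 lists, against 36 of the 47 histone genes of that size (76.6%). Most of the 1530 (1381) had a peak in no list, against 1 of the 47. They match the histone genes in span, but are mainly genes without any peak. The other 5 members have annotated spans from 3788 to 37455 bp (H2bc4, H2bc6, H2bc22, H2bc23 and H4bc24).

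**Figure D1:**
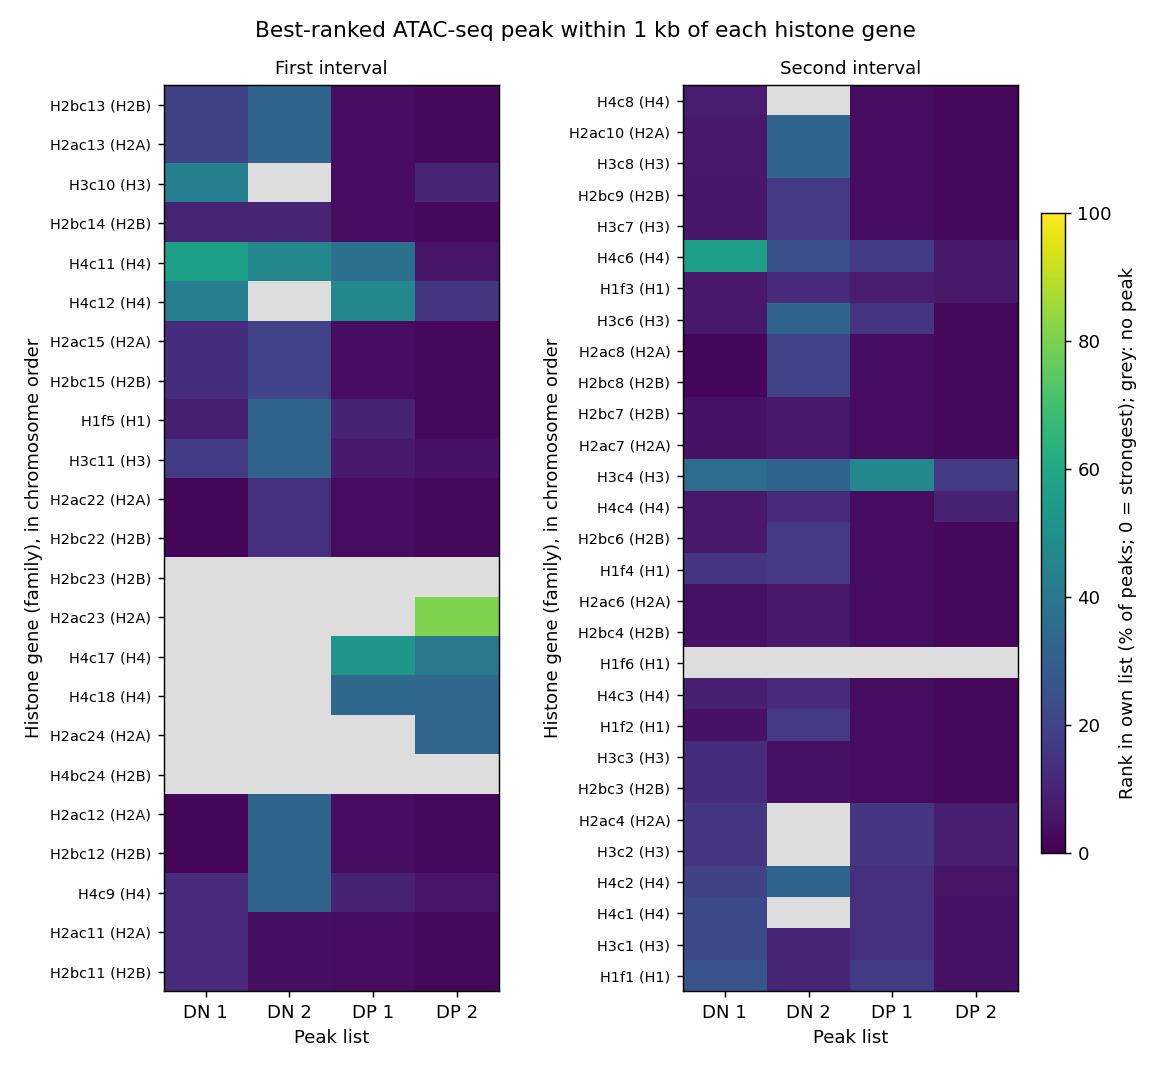
Each row is a histone gene in chromosome order and each column a peak list; colour gives the rank of the gene's best peak within 1 kb, as percent of the peaks of that list (0 is the smallest authors' p-value), and grey means no peak. The 39 genes held by all 4 lists form 2 nearly full blocks, broken by the 6 genes from H2bc23 to H4bc24, by H1f6, and by 6 genes missing only in DN 2.

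The difference between stages rested on few genes. Only 2 of the 52, H4c17 and H4c18, were held by both DP lists and neither DN list, while 10.4% of all protein-coding genes had this pattern. No histone gene was held by both DN lists and neither DP list (0.749% of all genes). Another 6 were held by every list but DN 2: the H3 genes H3c10 and H3c2, the H4 genes H4c12, H4c8 and H4c1, and the H2A gene H2ac4. That is 11.5% of the members, near the 12.9% of all protein-coding genes with the same pattern, and all the members with both DP lists and 1 DN list (14.4% of all genes). None was held by both DN lists and 1 DP list (1.88% of all genes), and 3, H2bc23, H4bc24 and H1f6, by no list (30.5% of all genes). Without DN 1, 8 genes were held by both DP lists and not by the remaining DN list. These join the members with both DP lists and neither DN list to those missing only from DN 2. Among all protein-coding genes these patterns had 10.4 and 12.9%. Without DP 1, 4 genes were held by DP 2 and by neither DN list, and the share of all genes was not taken.

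Between families the counts differed most in DN 2, from 6 of 11 for H4 to 12 of 14 for H2B. The H2B genes, which form a dimer with H2A in the nucleosome, were held 12 of 14 in each of the 4 lists. The linker histone genes of H1 were held 5 of 6 in each list. For H3, the lists DN 1, DN 2, DP 1 and DP 2 held 9, 7, 9 and 9 of 9 genes. The 12 H2A genes gave 10, 9, 10 and 12. The H4 genes gave 9, 6, 11 and 11 of 11, so 6 of 11 H4 genes were held by all 4 lists, against 5 of 6 for H1, 9 of 12 for H2A, 12 of 14 for H2B and 7 of 9 for H3. In the first interval 15 of 23 genes and in the second 24 of 29 were held by all 4 lists.

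**Figure D2:**
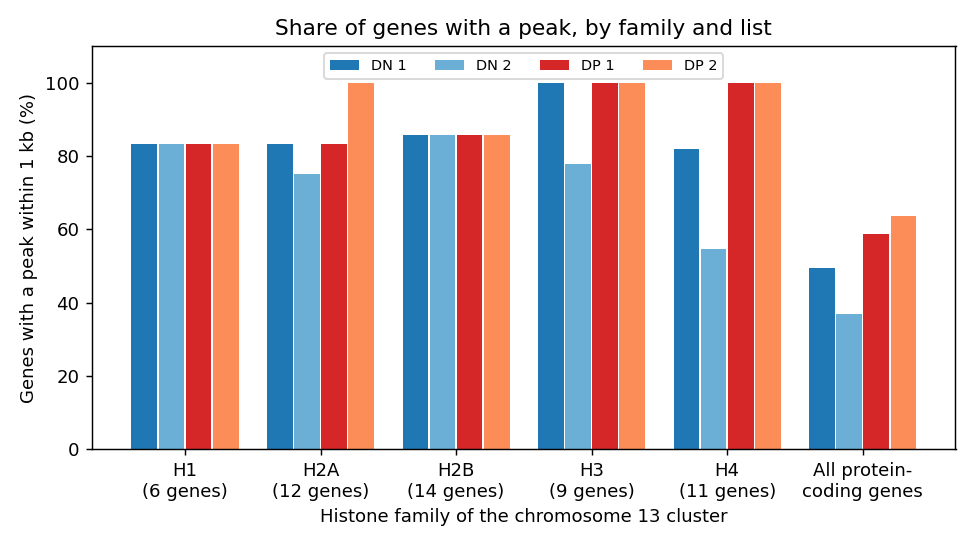
Bars give the percent of genes with a peak within 1 kb, by histone family and for all protein-coding genes, in each of the 4 lists (1 bar per list, no error bar). H1 and H2B stand at the same height in all lists, and the lowest histone bar is H4 in DN 2, at 54.5%.

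The mean rank over the lists was taken only for genes held by all 4, and the best of each family is described here. A gene missing from a list was left out even where its other ranks were low, such as H4c8 at 8.14, 3.20 and 2.23% in DN 1, DP 1 and DP 2. H2ac6, an H2A gene, had its best peak at 700 bp wide in DN 1, 750 in DN 2, 950 in DP 1 and 850 in DP 2, within the best 4.36, 6.96, 3.20 and 2.23% of each list, and the same peaks lay within 1 kb of the H2B gene H2bc4. H1f2, a linker histone gene common in somatic cells, had best peaks of 750, 550, 850 and 1000 bp at 4.73, 16.7, 3.20 and 2.23%. Those of DN 2 and DP 1 covered its start, but those of DN 1 and DP 2 lay at its other end. The peaks over the H1f2 start in DN 1 and DP 2 were 550 bp at 17.3% and 650 bp at 5.96%. H4c3 had peaks of 600, 550, 700 and 750 bp at 8.88, 11.9, 3.20 and 2.23%. The values 3.20 and 2.23% are the mean ranks of all peaks tied at the smallest p-value (1e-12) of DP 1 and DP 2, so peaks at these values have no order. For H3 the best was H3c3, with 950, 800, 950 and 950 bp at 13.1, 5.00, 3.20 and 2.23%, but these peaks covered the start of the H2B gene H2bc3 and not that of H3c3 itself, and the pseudogene H2ac5-ps is also within 1 kb of them.

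Measured at the start site, 31 of 50 histone starts (62.0%) lay under a peak in all 4 lists, against 12.9% of the 32851 starts in the table. DN 1 covered 38 of the 50, DN 2 covered 32, DP 1 covered 40 and DP 2 covered 43, or 76.0, 64.0, 80.0 and 86%, where all starts gave 22.4, 15.3, 30.1 and 31.7%. Both DP lists were above both DN lists (two-sided exact permutation p = 0.333, n = 2). H4 starts were covered 7, 4, 9 and 10 times of 11. H1f4, a somatic H1 gene with a peak within 1 kb in every list, had its start covered in DP 2 alone. By stage, 3 starts (H4c12, H3c2 and H4c1) were covered by both DP lists and neither DN list, against 7.32% of all starts, and none by both DN lists and neither DP list (0.466% of all). Both DP lists and 1 DN list covered 5 (7.79% of all), and both DN lists and DP 2 covered 1, H2ac10 (0.451% of all with both DN lists and 1 DP list). No list covered 6 starts (12.0%, against 64.5% of all): H2bc23, H2ac23, H2ac24, H4bc24, H1f6 and H3c3. At 500 bp past the start, cover was down to 12 and 4% in the DN lists and 16 and 14% in the DP lists. The median span of the members was 491 bp, so this point lies near or beyond the end of most of them.

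**Figure D3:**
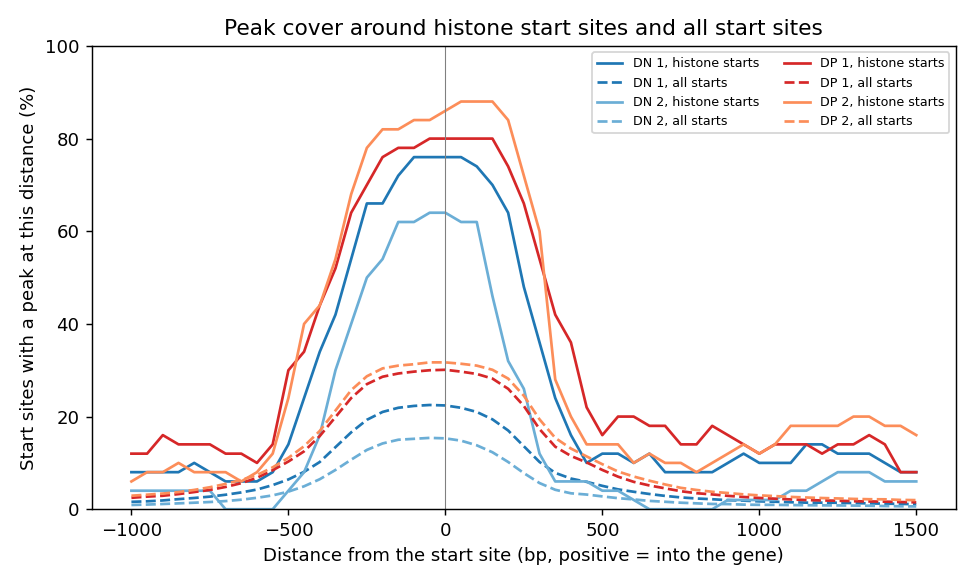
Lines give the percent of start sites that have a peak at each distance from the start (bp, positive into the gene), solid for the 50 histone starts and dashed for all 32851 starts, by list. The solid lines reach 64 to 86% at the start and lie above the dashed ones there (15.3 to 31.7%). They fall to 16% or less at 500 bp past the start, near or beyond the end of most histone genes.

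The median position of the peak relative to the start had the same sign in all 4 lists within each family. Single peaks could lie on the other side, with H4 from -101.5 to 331.5 bp in DP 2 and H2A from -226.5 to 112.5 in DP 1. In each list, 7 peaks cover an H2A and an H2B start that lie head to head. They enter both families, and a centre between such starts is upstream of both. The centre of peaks over H2A starts lay upstream, at a median of -109.5 bp in DN 1, -107.5 in DN 2, -105.5 in DP 1 and -73.5 in DP 2 (9 to 10 starts per list). H2B starts gave -64.5, -72.5, -71.5 and -102 bp (11 to 12 starts), and H3 starts -37.5, -59.5, -84 and -41 bp (4 to 6 peaks). H4 starts had the median centre inside the gene, at 57.5, 32.5, 42.5 and 44.5 bp (4 to 10 peaks), as did H1 starts, at 31, 59, 68.5 and 68.5 bp (4 to 5 peaks). Peaks begin on a grid of 50 bp, so these offsets are no finer than that.

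Most H2A and H2B starts share a promoter. Among starts in the promoter table the cluster has 9 head-to-head pairs of an H2A and an H2B start, 164 to 268 bp apart. H2bc4, next to H2ac6, has no start there, so a pair with H2ac6 could not be counted. In every list a peak over the H2ac6 start reaches into the H2bc4 span. Such a peak is classed below as over 1 histone start. In 7 of the 9, a single peak covered both starts in every list, and in the other 2, H2bc23-H2ac23 and H2ac24-H4bc24, in no list. Among 1654 other pairs of divergent starts within 1 kb, one peak covered both in all 4 lists in 29.9%. For H2ac8-H2bc8, whose stretch is printed above, the peak was 750 bp wide in DN 1, 500 in DN 2, 850 in DP 1 and 850 in DP 2. Over the 7 pairs the median width was 750, 550, 850 and 800 bp in these lists. Peaks over 1 histone start had medians of 600, 500, 700 and 700 bp. Those over starts of other genes had 600, 550, 650 and 700 bp, and all peaks of a list had 400, 350, 450 and 400 bp. A peak over 2 starts has to span both, and a wide peak covers a start more readily. Part of this order of widths thus follows from how the classes were made.

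**Figure D4:**
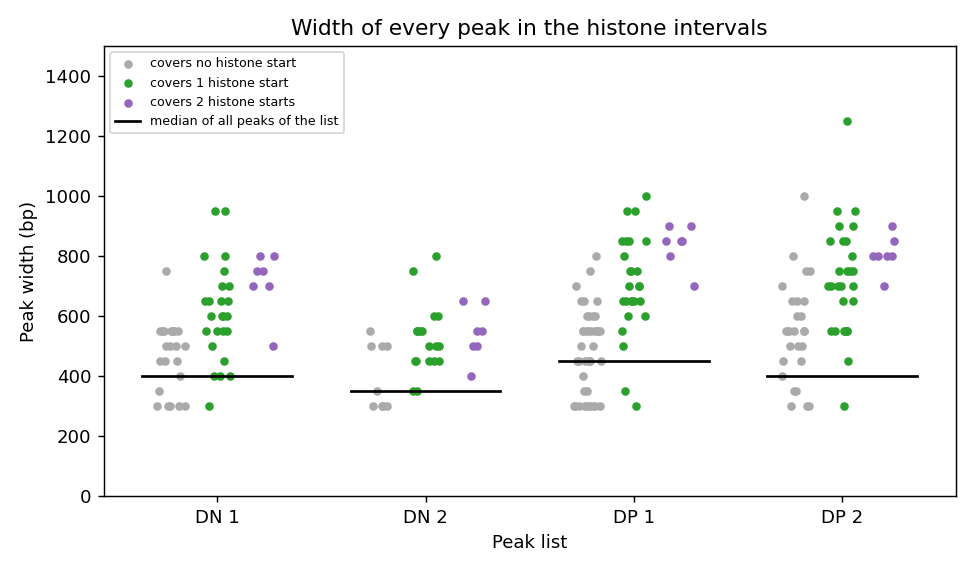
Each point is a peak in the histone intervals, by list, with its width in bp; green covers 1 histone start, purple covers 2, grey covers none, and the black line is the median of all peaks of the list. The purple points, 7 per list, run from 700 to 900 bp in both DP lists, from 500 to 800 in DN 1 and from 400 to 650 in DN 2. Only starts in the promoter table count, and H3c7, H2bc4 and H3c1 have none there.

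Within their own list, histone start peaks stood differently in the stages. In DN 1, 3 of 32 peaks over a histone start had the list's smallest p-value (9.38%), and 0 of 25 in DN 2. In DP 1 it was 17 of 33 (51.5%) and in DP 2 17 of 36 (47.2%). Peaks over starts of other genes gave 15 and 11.5% in the DN lists and 22.2 and 26.0% in the DP lists. Histone start peaks were thus under other start peaks in both DN lists (by -5.65 and -11.5 percentage points) and above them in both DP lists (by 29.3 and 21.2 points). The difference between stages was 33.8 points (-8.57 ± 4.14 in DN, 25.2 ± 5.73 in DP, SD, n = 2, two-sided exact permutation p = 0.333). Of all peaks, 3.56% in DN 1, 2.19% in DN 2, 6.4% in DP 1 and 4.45% in DP 2 had the smallest p-value. The cut was thus stricter in the DN lists. Taken as the best 10% of a list, histone start peaks were 5.21 points above others in DN 1, -19.9 in DN 2, 30.4 in DP 1 and 27.9 in DP 2. The median rank, where the lower number is stronger, was 12.0% for histone and 19.5% for other start peaks in DN 1, 20.1 and 16.7% in DN 2, 3.20 and 17.8% in DP 1, and 4.73 and 10.7% in DP 2, so by medians the groups overlapped. The p-values are the authors' own and order peaks within 1 list. These shares do not measure a change in accessibility.

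The 6 genes of the first interval held by the fewest lists include near-identical copies. H2bc23, H2ac23 and H4c17 on one side and H4c18, H2ac24 and H4bc24 on the other lie in mirrored order and orientation, and H4bc24 is an H2B gene by its older name, Hist1h2br. The 300 bases of the H2bc23 and H4bc24 promoters were identical, and those of H4c17 and H4c18 differed by 3 edits (99.0% identity), with 2 edits between the stretches printed above. The promoters of H2ac23 and H2ac24, each taken from its own annotated start, were 47.3% identical, but they are shifted against each other. The 50 bases just before the H2ac23 start are also the first 50 of the 150 bases before the H2ac24 start. Of their runs of 50 bases, 86.9 and 73.3% occurred elsewhere in the promoter table. The 47.3% therefore does not show that these H2A copies differ more than the H2B and H4 copies. H4c17 had a best peak of 450 bp in DP 1 (rank 53.1%) and 450 bp in DP 2 (40.1%), and H4c18 had 450 bp in DP 1 (33.8%) and 550 bp in DP 2 (33.1%), with none in DN. Their starts were covered in DP 2 alone. H2ac23 and H2ac24 were held by DP 2 alone, with best peaks of 300 bp (rank 80.8%) and 550 bp (33.1%). These peaks cover the starts of H4c17 and H4c18 and touch neither H2A gene, and the second is the DP 2 peak already given for H4c18. The H2B genes H2bc23 and H4bc24 were held by no list. Their neighbour pair H2ac22-H2bc22 was covered in all 4 lists, by a peak at the smallest p-value in DN 1, DP 1 and DP 2.

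Repeated sequence was also measured in every promoter. In 8 of the 50 histone promoters some run of 50 bases occurred elsewhere in the promoter table: the 6 above (73.3 to 100% of such runs) and H4c11 and H4c12 (11.6% each). None of these 8 starts was covered by all 4 lists, while 31 of the other 42 were (73.8%). Of all promoters in the table, 2671 held a repeated run, and 70 of them (2.62%) were covered by all 4 lists. The sources used here do not give the read length or what was done with reads that match several places, and the part of such reads in the missing peaks was not tested.

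H1f6 was the other gene with no peak in any list. It encodes the H1 of the male germ line. Its promoter had no repeated run of 50 bases. It carries the H1 box and CCAAT like the somatic H1f3, which was covered in all 4 lists by start peaks. TATAAA was in the H1f3 promoter but not in that of H1f6. The H1f2 promoter also lacked TATAAA, and its start was covered in all 4 lists. H4c3, the gene next to H1f6, was held by all 4 lists.

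The intervals also hold 31 tRNA genes, all in the first. DN 1 had a peak within 1 kb of 7 of them, DN 2 of 3, DP 1 of 12 and DP 2 of 10, or 22.6, 9.68, 38.7 and 32.3%. Over all 408 tRNA genes of the table the shares were 29.7, 20.6, 43.4 and 44.6%. The difference between these shares was not tested. The stage groups did not overlap (11 ± 1.41 in DP against 5 ± 2.83 in DN, SD, n = 2, two-sided exact permutation p = 0.333). Merged over the lists, the peaks formed 46 regions within 1 kb of a histone gene, of which 28 (60.9%) were in all 4 lists, and 18 others, of which 3 (16.7%) were. Over the genome 7.39% of 107621 regions were in all 4 lists, 7.44% in both DP lists alone and 2.51% in both DN lists alone.

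Of 13 replication-dependent histone genes elsewhere in the genome (chromosomes 3, 6 and 11), 8 were held by all 4 lists, among them H4c14, H2bc21 and H4f16. The share of all protein-coding genes held by all 4 lists, 31.0%, is the background for this count and for those of the other gene lists below. The H3 genes H3c14 and H3c15 were held by none. Of 10 histone genes listed as replication-independent, most of which can supply variants outside S phase, 4 were held by all 4 lists (H2ax, H2az1, H2az2 and H3f3b). H1f0 was held by both DP lists only. Factors of histone transcription and message processing were held by all 4 lists in 13 of 21 cases, including Npat, Casp8ap2 and Lsm10, a subunit of the U7 particle that cuts histone messages. Another 7, among them Slbp, whose protein binds the stem-loop, and Hinfp, which binds H4 promoters, were held by both DP lists and DN 1, a pattern of 12.9% of all genes. Upf1 was held by both DP lists alone (10.4% of all genes). Of 10 histone chaperones 4 were held by all 4 lists (Asf1a, Asf1b, Npm1 and Nap1l1) and Chaf1a by both DP lists alone. With 4 of 10 genes each, the chaperones and the replication-independent histones lay near the background.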

How the data were processed

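ATAC-seq peak lists of 4 thymocyte samples were used. The submitters' processing notes name the mm10 build and the tools Bowtie2 and Picard, with no version. PeakDEck as peak caller is read from the deposited lists' names alone. No source used here gives its settings, duplicate handling or the handling of multiply matching reads. Each deposited list gives coordinates and the authors' p-value per peak, used only to rank peaks within a list (ties share a mean rank). Peaks of 1 list may overlap (9.02 to 11.3% do).

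Groups and replicate numbers came from the titles. Gene spans and promoters are RefSeq's (GRCm38.p6), counted from 1. A gene is held by a list when a peak lies within 1000 bp of its span. A run of 50 bases counts as repeated when it occurs at another position of the promoter table, on either strand. Regions are peaks that share at least 1 bp. Named genes are all members plus lists of other histones, histone factors, chaperones and markers. Members, lists and tests were chosen with earlier results of these data known. One marker gene, and the count of the B cell list that holds it, is not reported here. No genome sequence was used. Alternatives changed the list length, the distance to the gene, the scale, the peaks counted and the lists kept. The script was tested on simulated lists. Tests were exact permutations over samples. Versions were matplotlib 3.10.9, scipy 1.17.1, pandas 2.3.3, numpy 2.4.6 and Python 3.11.15.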

Additional observations from a re-analysis of the deposited data

Results flagged for a closer look

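The share of histone start peaks at the smallest p-value of their list, less the same share of other start peaks, was below 0 in both DN lists and above 0 in both DP lists, with DP 33.8 percentage points above DN. The opposite signs drew attention to it. However, the smallest p-value took in 3.56 and 2.19% of the DN lists and 6.4 and 4.45% of the DP lists, so the cut differed between stages. With 2 samples per group the exact permutation p of 0.333 cannot go lower, and with the best 10% of each list DN 1 was also above 0 (5.21 points).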

How the results depend on the processing

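The DP minus DN difference in peaks kept its direction under all 10 alternatives run (1.57 per 10000 peaks, with exact p = 1), from 13.5 to 34.5 peaks with a list left out and 15.5 with overlapping peaks of a list merged. That in held genes ranged from 3 to 9 with a list left out and turned to -2.29 per 10000 peaks (exact p = 1). Genes held by both DP lists and neither DN list numbered 2, 1 in the best ranked 50% of each list, 4 when a peak had to touch the gene, 6 within 2500 bp, 6 with each peak counted for its nearest histone gene only, and 2 to 8 with a list left out. Genes held by all 4 lists numbered 39 to 45 with a list left out and 37 in the best ranked 50% of each list. They numbered 34 when a peak had to touch the gene, 35 within 500 bp and 43 within 2500 bp. With the nearest gene only, where a peak near several histone genes counts for 1 of them, they numbered 19. Except where given above, no share over all protein-coding genes was taken for these gene counts, so they describe the members only. The difference of 33.8 points in start peaks at the smallest p-value ran from 29.8 to 37.9 with a list left out. With the replicate number as a block the differences were 24 peaks, 6 genes and 33.8 points, each with an exact sign-flip p of 0.5, the smallest 2 pairs allow. Across genes the DN 1 minus DN 2 and DP 1 minus DP 2 differences in held genes had r = 0.0396, so the numbers were not taken to pair the lists. Leaving out peaks at the largest p-value, merging overlapping peaks, and all settings of the start peak result were added after the data were examined.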
